A study of Mus musculus with 15 samples.

Results

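The 8 genes described here encode proteins that make superoxide in macrophages, or that remove superoxide or the hydrogen peroxide formed from it. Cybb, Cyba, Ncf1, Ncf4 and Rac2 encode parts of the phagocyte NADPH oxidase, Sod1 and Sod2 encode superoxide dismutases, and Cat encodes catalase. They were chosen by name and represent 8 of the 18193 genes that had a probe set of their own on the array. A probe set is a group of short DNA probes that together read 1 transcript, and each gene was read through the 1 probe set, among those annotated to that gene alone, with the highest mean over all 15 arrays.

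RNA came from macrophages that had been cultured from mouse bone marrow with the growth factor M-CSF for 7 days, and 5 groups of 3 biological replicates were measured on 1 array each. M1 cells were polarized with bacterial lipopolysaccharide (LPS) and interferon-gamma. M2+nutlin cells were polarized with IL4 and IL13 and also received nutlin-3a, a compound that blocks the binding of MDM2 to p53. M2+10058F4 cells were polarized with the same cytokines and also received 10058F4, an inhibitor of MYC. M2 cells received IL4 and IL13 alone, and M0 cells were left untreated. The labels state no dose, time, vehicle or mouse strain, and whether the replicates came from separate mice is not stated, so p-values measure the spread between these samples. Levels are log2 values after robust multi-array average (RMA) normalization, so a difference of 1 is a doubling, and a level of one gene cannot be set against that of another because each probe set binds with its own strength.

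The phagocyte NADPH oxidase is an enzyme that is taken apart at rest. Cybb encodes the catalytic subunit, which moves electrons from NADPH across the membrane onto oxygen, and Cyba encodes its membrane partner. Ncf1 encodes the organizer that travels to the membrane on stimulation, Ncf4 encodes a regulatory subunit that binds phosphoinositides on phagosomes, and Rac2 encodes the GTPase that completes the active complex in blood cells. The product is superoxide. Dismutases turn superoxide into hydrogen peroxide, and SOD1 holds copper and zinc and works mainly in the cytosol, while SOD2 holds manganese and works in mitochondria. Whether either dismutase handled superoxide from the oxidase was not measured here. Catalase, a haem enzyme of peroxisomes, splits hydrogen peroxide into water and oxygen.

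Promoter sequences show which known regulatory letters lie at the start of the members whose levels differed most between polarized states or moved together. RefSeq (GRCm38.p6) held a promoter, from 250 bases before to 50 bases after the start site, for 6 of the 8 members, all except Ncf4 and Rac2. Cybb and Ncf1 are shown as a membrane and a cytosolic subunit with the same order of levels over polarized states, and Sod1 and Sod2 as dismutases with opposite changes in M1 cells. Capitals mark every match, on either strand, to 8 motifs searched: the interferon-stimulated response element consensus, the interferon-gamma activated site TTCNNNGAA, the PU.1 core GAGGAA, the CCAAT box, the antioxidant response element TGACNNNGC, the E-box CACGTG, the NF-kappa-B consensus and the p53 half-site consensus. The sequences run 5′ to 3′ on the strand of the gene and lie at chrX:9469275-9469574 (minus strand) for Cybb, chr5:134229576-134229875 (minus strand) for Ncf1, chr16:90220512-90220811 (plus strand) for Sod1 and chr17:13007589-13007888 (plus strand) for Sod2. The Cybb window lies inside the gene range given further on, because the start site in the promoter table is not the outer end of that range.
Cybb: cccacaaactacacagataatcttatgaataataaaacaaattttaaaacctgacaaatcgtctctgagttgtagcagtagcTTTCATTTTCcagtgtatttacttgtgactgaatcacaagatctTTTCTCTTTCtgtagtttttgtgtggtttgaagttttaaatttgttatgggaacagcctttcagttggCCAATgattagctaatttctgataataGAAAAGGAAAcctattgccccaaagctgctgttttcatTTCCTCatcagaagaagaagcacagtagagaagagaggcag
Ncf1: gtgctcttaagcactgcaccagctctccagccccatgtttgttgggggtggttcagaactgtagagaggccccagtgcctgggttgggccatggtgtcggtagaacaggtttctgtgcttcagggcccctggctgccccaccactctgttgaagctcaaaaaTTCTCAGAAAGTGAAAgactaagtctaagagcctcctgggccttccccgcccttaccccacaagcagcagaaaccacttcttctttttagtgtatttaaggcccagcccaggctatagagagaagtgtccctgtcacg
Sod1: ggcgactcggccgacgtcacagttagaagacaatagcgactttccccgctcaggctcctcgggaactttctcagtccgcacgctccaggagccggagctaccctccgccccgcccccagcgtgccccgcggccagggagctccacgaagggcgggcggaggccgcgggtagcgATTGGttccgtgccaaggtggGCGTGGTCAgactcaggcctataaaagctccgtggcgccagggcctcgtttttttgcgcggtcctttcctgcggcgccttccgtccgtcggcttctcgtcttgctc
Sod2: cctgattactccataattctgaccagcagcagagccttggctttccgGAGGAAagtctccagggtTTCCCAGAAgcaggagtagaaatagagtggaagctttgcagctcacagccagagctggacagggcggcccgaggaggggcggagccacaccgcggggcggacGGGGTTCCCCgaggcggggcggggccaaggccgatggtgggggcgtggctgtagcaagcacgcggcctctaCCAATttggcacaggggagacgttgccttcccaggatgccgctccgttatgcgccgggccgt

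The Cybb promoter held 3 matches to the interferon-stimulated response element, whose leftmost bases lie at -168, -124 and -29 from the start site, and the Ncf1 promoter held 1 at -82. Of 32851 mouse promoters of the same length, 3.44% held that element. The Ncf1 match overlapped an interferon-gamma activated site at -88, and Sod2 held another at -185; 8.3% of all promoters held that motif. Sod2 also held 1 NF-kappa-B consensus at -83 that reads on both strands, found in 4.51% of all promoters, and Sod1 held 1 antioxidant response element at -56, found in 12.4%. Cybb and Sod2 each held the PU.1 core (28.3% of all promoters), and Cybb, Sod1 and Sod2 each held a CCAAT box (37.4%). Of the 2 members with a promoter not shown, Cat held 1 PU.1 core and 4 CCAAT boxes, and Cyba held no match to any of the 8 motifs. Neither the E-box (7.15% of all promoters) nor the p53 half-site (8.36%) was found in these 6 windows. A match is a string of letters only and says nothing of binding.

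Whole-array checks bear on how the members can be read. The array held 45101 probe sets and 13703 genes passed a filter on low signal (above the array's own 40th percentile on at least 3 arrays); all 8 members passed on all 15 arrays. The M1 polarization genes Nos2 and Cxcl9 averaged 8.56 and 13.37 in M1 cells, against 4.94 and 4.74 in M0 cells. The nutlin target gene Mdm2 averaged 11.18 in M2+nutlin cells, against 9.19 in M2 cells, and it also averaged 11.27 in M1 cells. Myc, the check gene for 10058F4, averaged 7.47 in both M2+10058F4 and M2 cells, and the action of that agent on MYC was not tested. Of the check genes of the M2 state, Retnla averaged 9.66 in M2 cells, 8.17 in M2+nutlin cells and 7.18 in M2+10058F4 cells. Arg1 averaged 10.37, 10.52 and 10.34 in the same order. All 8 macrophage markers were well above the filter in every group. M1 replicate 2 stood apart: Arg1, a gene of the M2 state, was at 8.76 there and at 5.35 and 5.30 in the other M1 arrays, so results that rest on M1 are also given without it. The neutrophil list, which matters because neutrophils carry the same oxidase, had 9 of its 12 genes above the filter, and its summed linear signal ran from 578.1 to 663.4 in M1 cells, from 681.1 to 699.1 in M2 cells and from 958.4 to 1065 in M0 cells, led in M0 cells by Mmp8. Mmp8 averaged 5.6 in M1 cells and 8.87 in M0 cells, while 4 of the 9 genes, among them Camp and Elane, were called higher in M1 cells and 2, Mmp8 and S100a9, lower. Of all genes tested, 72.7% were called there. Group means above 8 were reached by 1 gene of the list in M1 cells, 1 in M2 cells and 2 in M0 cells. Camp (5.79 in M1 and 5.24 in M0 cells), Elane (5.32 and 4.79) and S100a9 (4.53 and 5.31) lay near the filter value of 4.34 to 4.52. Of 6 dendritic cell markers, Batf3 alone had group means above 8, and the list's summed signal ran from 384 to 477.8 in M1 cells, from 968.9 to 1215 in M2 cells and from 245.2 to 275.4 in M0 cells. Against M0 cells, Batf3 was the 1 marker of that list called in M2 cells, and Xcr1, Ccr7 and Batf3 were called higher in M1 cells. The difference between the 3′ and 5′ control probe sets for beta-actin, a measure of RNA integrity and labelling, was 0.178 ± 0.044 in M1 cells, 0.453 ± 0.035 in M2+nutlin cells, 0.489 ± 0.025 in M2+10058F4 cells, 0.382 ± 0.03 in M2 cells and 0.351 ± 0.054 in M0 cells (SD, n = 3 each). The same difference for Gapdh went the other way, at -0.162 ± 0.035 in M1 cells, -0.281 ± 0.014 in M2+nutlin cells, -0.272 ± 0.01 in M2+10058F4 cells, -0.283 ± 0.032 in M2 cells and -0.273 ± 0.015 in M0 cells. The part of neutrophil or dendritic cell RNA and of RNA integrity in the member differences was not tested, and in these bulk samples fewer cells of a type and less RNA per cell cannot be told apart.

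M1 cells had far more Sod2 mRNA and more Rac2 and Ncf1 mRNA than M0 cells, and less Sod1 and Cat mRNA. Sod2 was 6.22-fold higher, Rac2 2.85-fold higher and Ncf1 1.41-fold higher, while Cat was 2.71-fold lower and Sod1 2.38-fold lower. Cybb, Cyba and Ncf4 did not pass the test. With 3 members higher and 2 lower, 5 of 8 were called at an adjusted p under 0.05 (limma, adjusted over all 13703 genes), in a comparison in which 72.7% of all genes tested were called, 33.6% higher and 39.1% lower; the members' count is near that background. Arrays of 6 members did not overlap between M1 and M0 cells, against 71.3% of all genes tested. The same 5 members were called without M1 replicate 2.

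M2 cells had less of most of these mRNAs than M0 cells. Cat, Ncf1, Sod1, Sod2, Rac2 and Cybb were lower, by 1.26-fold to 1.83-fold, and Ncf4 alone among the members was higher, by 0.26 on the log2 scale. Thus 7 of 8 members were called (limma), where 31% of all genes tested were called, 12.7% higher and 18.4% lower. Arrays of 7 members did not overlap, against 47.2% of all genes tested. The median member differed by -0.41 on the log2 scale, against -0.004 for the median gene tested. Between the polarized states, M1 cells exceeded M2 cells in Sod2, Rac2, Ncf1 and Cybb and were lower in Sod1 and Cat; 6 of 8 members were called, against 64.7% of all genes tested (28.1% higher and 36.5% lower), and arrays of 7 members did not overlap, against 64.9%. M1 against M0, M2 against M0 and M1 against M2 share arrays pairwise, so their values are given side by side and not as repeats of each other.

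**Figure D1:**
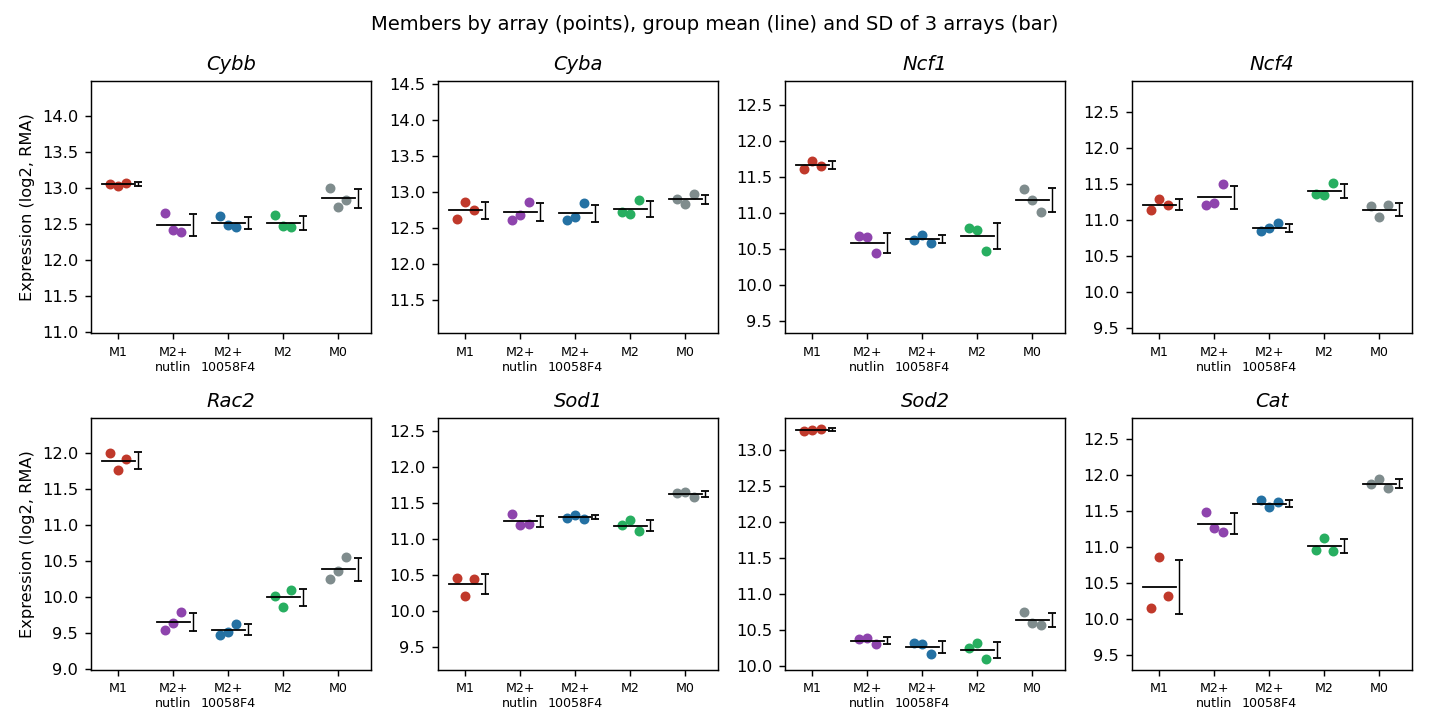
Level of each member (log2, RMA, vertical axis, of the same span in every panel) on each of 15 arrays in the 5 groups; points are arrays, lines are group means and bars are the SD of 3 arrays. Sod2 in M1 cells averaged 13.29, against 10.23 in M2 cells and 10.65 in M0 cells, while Cyba group means stayed between 12.70 and 12.89.

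The catalytic subunit gene Cybb (Gene ID 13058, X chromosome, 9435252 to 9487766, GRCm38.p6) was read by probe set 1436778_at. It stood at 13.06, 13.03 and 13.08 on the M1 arrays, at 12.63, 12.47 and 12.46 on the M2 arrays and at 13.00, 12.74 and 12.84 on the M0 arrays. All M1 arrays lay above all M2 and M0 arrays, and the M0 arrays lay above the M2 arrays. The M1 to M2 difference was 0.53 ± 0.09 (SE; adjusted p = 7.6e-05, limma), and the M2 to M0 difference was -0.34 ± 0.09 (adjusted p = 0.0084). The M1 to M0 difference of 0.20 missed the threshold (95% interval 0.01 to 0.38, adjusted p = 0.055). The other Cybb probe sets, 1422978_at and 1436779_at, are dimmer and gave larger M1 to M0 differences of 0.30 (adjusted p = 0.0242) and 0.43 (adjusted p = 0.0052), so the call turns on the probe set.

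Neither agent passed the test for Cybb. M2+nutlin arrays read 12.66, 12.42 and 12.40 and M2+10058F4 arrays read 12.61, 12.49 and 12.46, and both sets overlapped the M2 arrays. The difference from M2 cells was -0.03 with nutlin-3a (95% interval -0.22 to 0.16) and 0.00 with 10058F4 (95% interval -0.19 to 0.18). In order of level M1 and M0 stood first and did not differ beyond the test, M0 exceeded M2, and M2, M2+10058F4 and M2+nutlin could not be separated.

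Cyba (Gene ID 13057, chromosome 8, 122424771 to 122432940) encodes the membrane partner that stabilizes the catalytic subunit, and its single probe set was the most even of the 8. It read 12.62, 12.85 and 12.74 in M1 cells, 12.61, 12.68 and 12.86 in M2+nutlin cells, 12.61, 12.65 and 12.84 in M2+10058F4 cells, 12.71, 12.69 and 12.88 in M2 cells and 12.89, 12.83 and 12.96 in M0 cells. Arrays of every pair of neighbouring groups overlapped, and none of the 10 pairs of groups was called. The interval of the M1 to M2 difference ran from -0.22 to 0.17, and that of the M1 to M0 difference from -0.35 to 0.04. The sign of the Cyba difference depends on the scaling: with each array centred on the median of the tested genes, which puts the median gene at 0.321 for M1 against M0 and at 0.237 for M1 against M2 (-0.005 for both as deposited), Cyba became 0.17 for M1 against M0 and 0.22 for M1 against M2.

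Ncf1 (Gene ID 17969, chromosome 5, 134220053 to 134229628), the organizer subunit, followed the order of Cybb, with wider steps through the chosen probe sets. The width depends on the probe set: the Cybb probe set 1436779_at gave 0.43 for M1 against M0, -0.50 for M2 against M0 and 0.93 for M1 against M2. Ncf1 read 11.61, 11.73 and 11.66 in M1 cells, 10.79, 10.77 and 10.47 in M2 cells and 11.34, 11.18 and 11.01 in M0 cells. The 3 groups did not overlap, with M1 highest and M2 lowest. M1 cells exceeded M0 cells by 0.49 ± 0.10 (SE; adjusted p = 0.00064, limma) and M2 cells by 0.99 ± 0.10 (adjusted p = 8.5e-07), and M2 cells were below M0 cells, at -0.50 ± 0.10 (adjusted p = 0.00212). All 3 Ncf1 probe sets gave the same directions, with M1 to M0 differences of 0.49, 0.75 and 0.94; the brightest, used here, gave the smallest. The agents left Ncf1 within the range of the M2 arrays or just under it, at 10.68, 10.67 and 10.44 in M2+nutlin cells and at 10.63, 10.69 and 10.58 in M2+10058F4 cells, and neither comparison was called.

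Ncf4 (Gene ID 17972, chromosome 15, 78244164 to 78262582) behaved differently from the other cytosolic subunit. It read 11.14, 11.29 and 11.21 in M1 cells, 11.22, 11.24 and 11.51 in M2+nutlin cells, 10.85, 10.89 and 10.96 in M2+10058F4 cells, 11.37, 11.35 and 11.52 in M2 cells and 11.20, 11.05 and 11.21 in M0 cells. The M2+10058F4 arrays lay below every other array, and the M2 arrays lay above all M1 and M0 arrays. M2 cells exceeded M0 cells by 0.26 ± 0.09 (SE; adjusted p = 0.0305, limma), a call that was lost without M2 replicate 1 (adjusted p = 0.0529), without M2 replicate 3 (0.122) or without M0 replicate 2 (0.126). M2+10058F4 cells were 1.43-fold below M2 cells, a difference of -0.52 ± 0.09 (adjusted p = 0.00063), and also below M0 cells, at -0.25 ± 0.09 (adjusted p = 0.0355).

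Between the agents, Ncf4 was the only member called: M2+nutlin cells exceeded M2+10058F4 cells by 0.43 ± 0.09 (adjusted p = 0.00695), where 6.96% of all genes tested were called, 4.24% higher and 2.72% lower, and where arrays of 2 members, Ncf4 and Cat, did not overlap (32% of all genes). The Ncf4 difference between M2+nutlin and M2 cells was -0.09 (95% interval -0.27 to 0.09), which missed the threshold. M1 cells differed from M2 cells by -0.20 (adjusted p = 0.0548), with no overlap between arrays, and without M1 replicate 2 that difference was -0.24 and called (adjusted p = 0.0369). With each array centred on the median of the tested genes it turned to 0.04 (adjusted p = 0.666), so its direction depends on the scaling. Ncf4 has 1 probe set, so no second reading of the transcript was available on the array.

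Rac2 (Gene ID 19354, chromosome 15, 78559169 to 78572783), the GTPase, had the widest range among the oxidase genes. It read 12.0, 11.76 and 11.91 in M1 cells, 9.54, 9.64 and 9.78 in M2+nutlin cells, 9.47, 9.51 and 9.62 in M2+10058F4 cells, 10.01, 9.86 and 10.09 in M2 cells and 10.24, 10.35 and 10.55 in M0 cells. M1 arrays were highest, M0 arrays next and M2 arrays below them with no overlap, and both agent groups lay below all M2 arrays. M1 cells exceeded M0 cells by 1.51 ± 0.10 (SE; adjusted p = 4.3e-09, limma) and M2 cells by 1.91 ± 0.10 (adjusted p = 3.3e-10), a 3.75-fold difference. M2 cells were below M0 cells, at -0.39 ± 0.10 (adjusted p = 0.00653).

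Rac2 was the 1 member called for nutlin-3a against M2, at -0.33 ± 0.10 (adjusted p = 0.0331), in a comparison that called 15.4% of all genes tested, with 5.85% lower. That call did not hold without M2+nutlin replicate 1 (adjusted p = 0.125), M2+nutlin replicate 2 (0.0946), M2 replicate 1 (0.0996) or M2 replicate 3 (0.12). For 10058F4 against M2, Rac2 was at -0.45 ± 0.10 (adjusted p = 0.00424), and the agents themselves differed by 0.12 (95% interval -0.09 to 0.32). Both agent comparisons use the same M2 arrays. A dim second Rac2 probe set, 1440208_at, averaged 5.17 in M1 cells and 5.10 in M0 cells, a difference of 0.07 (adjusted p = 0.627), so the M1 to M0 call rests on the bright probe set; for M1 against M2 the dim one was called too, at 0.39 (adjusted p = 0.0141).

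**Figure D2:**
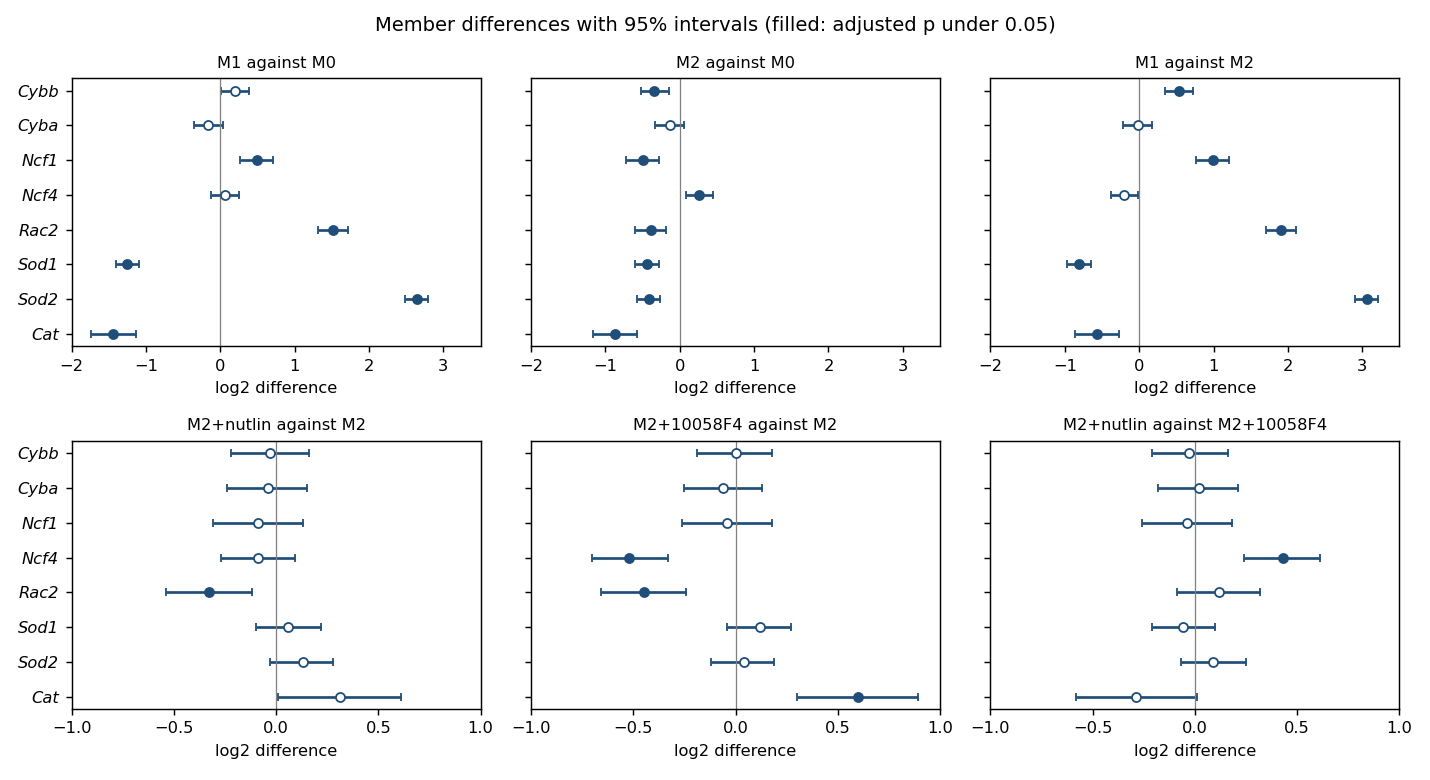
Difference of each member (log2, first group minus second, horizontal axis) in 6 comparisons, with 95% intervals from limma; filled points have an adjusted p under 0.05. The upper panels have a wider axis than the lower ones. Sod2 was at 2.64 for M1 against M0, and Ncf4 at -0.52, Rac2 at -0.45 and Cat at 0.60 for M2+10058F4 against M2.

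Sod2 (Gene ID 20656, chromosome 17, 13007839 to 13018119), the mitochondrial dismutase, had the largest difference of the 8 between M1 cells and either other state. It read 13.27, 13.29 and 13.30 in M1 cells, 10.26, 10.32 and 10.11 in M2 cells and 10.76, 10.61 and 10.58 in M0 cells. The M1 arrays were nearly equal and lay far above every other array, and the M0 arrays lay above the M2 arrays. M1 cells exceeded M0 cells by 2.64 ± 0.07 (SE; adjusted p = 8.1e-13, limma) and M2 cells by 3.06 ± 0.07 (8.32-fold; adjusted p = 1.5e-13). All 4 Sod2 probe sets rose in M1 cells against M0 cells, by 2.64, 2.72, 2.51 and 1.89.

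Below the M1 level, Sod2 still separated M0 from the rest. M2 cells were at -0.42 ± 0.07 from M0 cells (adjusted p = 0.00054), M2+nutlin cells at -0.29 ± 0.07 (adjusted p = 0.00708) and M2+10058F4 cells at -0.38 ± 0.07 (adjusted p = 0.00096). The agents did not move Sod2 past the threshold from M2 cells: the differences were 0.13 with nutlin-3a (95% interval -0.03 to 0.28) and 0.04 with 10058F4 (95% interval -0.12 to 0.19).

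Sod1 (Gene ID 20655, chromosome 16, 90220762 to 90226333), the cytosolic dismutase, ran the other way in M1 cells. It read 10.46, 10.21 and 10.44 in M1 cells, 11.19, 11.26 and 11.10 in M2 cells and 11.64, 11.65 and 11.58 in M0 cells. The 3 groups did not overlap, with M0 highest and M1 lowest. M1 cells were 2.38-fold below M0 cells, at -1.25 ± 0.07 (SE; adjusted p = 1.9e-09, limma), and below M2 cells too, at -0.81 ± 0.07 (adjusted p = 2.1e-07). M2 cells were below M0 cells at -0.44 ± 0.07 (adjusted p = 0.00043), so Sod1 and Sod2 were both lower in M2 cells while they parted in M1 cells.

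Sod1 has 5 probe sets, and they did not all tell the same story. The bright pair, 1451124_at and 1459976_s_at, gave M1 to M0 differences of -1.25 and -1.40. The dimmer 1435304_at gave -0.29 for M1 against M0 and, for M1 against M2, 0.26 (adjusted p = 0.00691), the opposite sign to the bright probe sets. The fourth, 1440222_at, gave -1.29 for M1 against M0, and 1447761_x_at lay under the filter on all 15 arrays. With the agents the chosen probe set read 11.34, 11.19 and 11.20 in M2+nutlin cells and 11.29, 11.33 and 11.28 in M2+10058F4 cells, and neither agent comparison passed the threshold, at 0.06 and 0.12 above M2 cells. Probe set 1459976_s_at gave 0.31 for nutlin-3a (adjusted p = 0.0635) and 0.36 for 10058F4 (adjusted p = 0.0254) against M2 cells. For nutlin-3a against M2, 1435304_at was called at 0.27 (adjusted p = 0.0254), and 1440222_at gave -0.39 (adjusted p = 0.125).

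Cat (Gene ID 12359, chromosome 2, 103453904 to 103485153), which encodes the peroxide-splitting enzyme, was the member that moved most with 10058F4. It read 10.15, 10.86 and 10.32 in M1 cells, 11.48, 11.27 and 11.21 in M2+nutlin cells, 11.65, 11.55 and 11.62 in M2+10058F4 cells, 10.96, 11.12 and 10.95 in M2 cells and 11.88, 11.94 and 11.82 in M0 cells. The M0 arrays lay above all others, then came the M2+10058F4, the M2+nutlin and the M2 arrays with no overlap between neighbours, and the M1 arrays lay lowest, with M1 replicate 2 nearest to M2. M1 cells were at -1.44 ± 0.14 from M0 cells (SE; adjusted p = 3.8e-07, limma) and at -0.57 ± 0.14 from M2 cells (adjusted p = 0.00247). Without M1 replicate 2 these differences were -1.65 and -0.78.

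M2 cells were 1.83-fold below M0 cells in Cat, at -0.87 ± 0.14 (adjusted p = 0.00027). M2+10058F4 cells were 1.51-fold above M2 cells, at 0.60 ± 0.14 (adjusted p = 0.00689), and their distance from M0 cells, -0.28 (95% interval -0.57 to 0.02), missed the threshold. M2+nutlin cells were at 0.31 from M2 cells (95% interval 0.01 to 0.61, adjusted p = 0.154) and at -0.56 ± 0.14 from M0 cells (adjusted p = 0.00677). When M1 replicate 2, whose spread enters the common error of the fit, was left out, the nutlin-3a difference was also called (adjusted p = 0.015), as was the difference of -0.29 between M2+nutlin and M2+10058F4 cells (adjusted p = 0.0376). For these comparisons that setting was added after the data were seen. Neither difference was called when any 1 array of the compared groups was left out. Array weights called both (limma, adjusted p = 0.0292 and 0.0236), and the 6 arrays alone called the nutlin-3a difference (0.0469). The second Cat probe set, 1416430_at, gave 0.53 for 10058F4 against M2 (adjusted p = 0.0226) and -0.23 for M1 against M2, which was not called (adjusted p = 0.198).

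**Figure D3:**
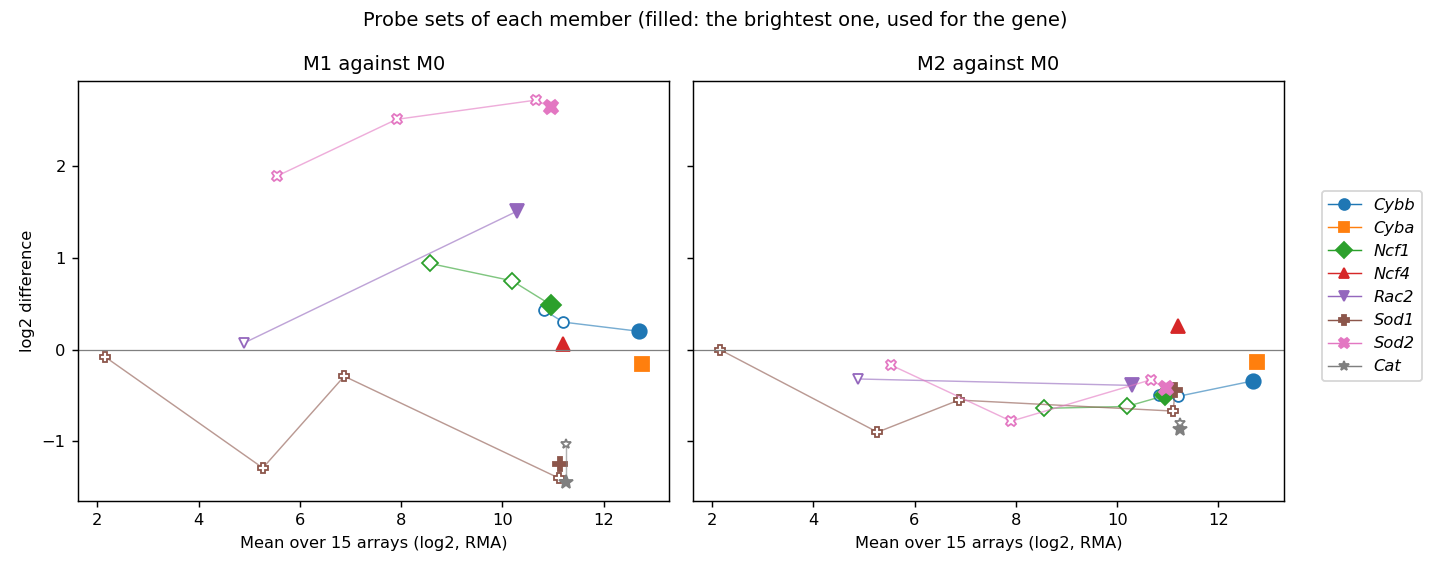
Every probe set annotated to 1 member alone, by its mean over 15 arrays (log2, RMA, horizontal axis) and its difference (log2, vertical axis) for M1 against M0 (left) and M2 against M0 (right); filled symbols are the brightest probe set of a gene and lines join probe sets of 1 gene. For M1 against M0 the 4 Sod2 probe sets lay between 1.89 and 2.72, while the Rac2 pair lay at 1.51 and 0.07.

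Set side by side, 10058F4 was called for more of the 8 members than nutlin-3a. Against M2 cells, 10058F4 was called for 3 of 8 members, with Cat higher and Ncf4 and Rac2 lower, where 20.9% of all genes tested were called, 10.6% higher and 10.2% lower. Nutlin-3a was called for Rac2 alone, 1 of 8 members, which is near the background of 15.4% (9.56% higher and 5.85% lower). The median member differed by -0.02 with 10058F4 and by -0.04 with nutlin-3a, and the median gene by 0.00 and 0.009. Against M0 cells, both agent groups had 6 of 8 members lower: Cybb, Ncf1, Rac2, Sod1 and Sod2 in both, with Cat in M2+nutlin cells and Ncf4 in M2+10058F4 cells. The backgrounds were 28.9% called and 15.6% lower for M2+nutlin, and 33% called and 19.1% lower for M2+10058F4. The arrays of 4 members did not overlap between M2+10058F4 and M2 cells, namely Ncf4, Rac2, Sod1 and Cat, against 44.2% of all genes tested. For M2+nutlin against M2 cells those of 2 members, Rac2 and Cat, did not overlap, against 38.9% of all genes tested.

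Across arrays the members fell into more than one pattern. The M1 arrays formed a cluster of their own for Sod2, Rac2 and Sod1, so relations between members are described over the 12 arrays of the other groups, among which the M0 arrays still lie apart from the IL4 and IL13 groups. There Pearson's r was 0.89 for Cybb and Ncf1, 0.91 for Ncf1 and Sod2, 0.90 for Sod1 and Sod2 and 0.89 for Sod1 and Cat. Ncf4 ran against Cat (r = -0.68). In M1 cells Sod1 and Cat were below, and Sod2 above, all arrays of the other groups. These arrays share RNA extracts between genes and are described without a test.

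**Figure D4:**
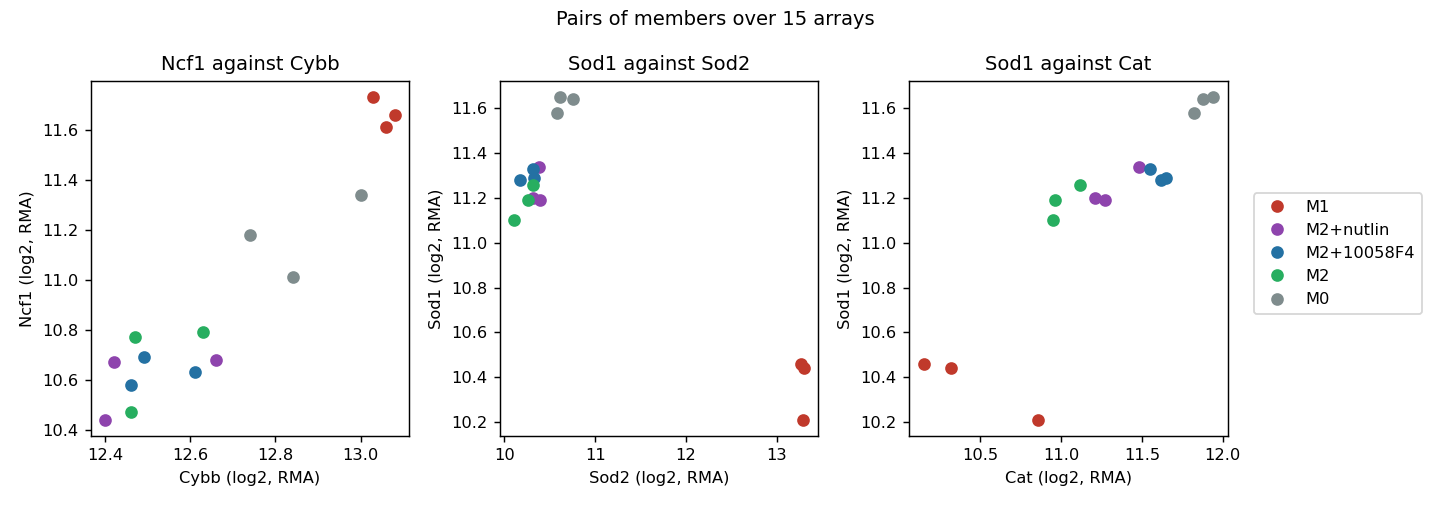
Levels (log2, RMA) of Ncf1 against Cybb, Sod1 against Sod2 and Sod1 against Cat on the 15 arrays, each point 1 array coloured by group. The M1 arrays lie at Sod2 levels of 13.27 to 13.30 and Sod1 levels of 10.21 to 10.46, apart from all other arrays, and the M0 arrays lie at the upper right of the other groups in the Sod1 and Cat panel.

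The genes whose pattern over the 15 arrays was most like a member's were ranked by Pearson's r among all tested genes. For Cybb the closest were Irf9 (r = 0.959), which encodes a subunit of the interferon-activated factor ISGF3, then Fyb and Rtp4. For Ncf1 they were Nectin4 (r = 0.978), Fyb and Trim30a. For Rac2 they were Hcls1 (r = 0.991), Gbp3, an interferon-induced GTPase, and Coro1b. The closest to Sod2 were Rapgef2 (r = 0.999), Kat2b and Isg20; these high values rest on the gap between M1 and the other groups, and Rapgef2 stood at 0.931 over the 12 arrays without M1. For Sod1 the first was Deptor (r = 0.987) and for Cat Ndfip1 (r = 0.983). Ncf4 was most like St6galnac4 (r = 0.892) and Cyba most like Galnt12 (r = 0.853), the lowest first value of the 8. The M1 arrays enter all these values. Over the 12 arrays without M1, r was lower for Deptor (0.906), Hcls1 (0.948), Nectin4 (0.941), Irf9 (0.943) and Ndfip1 (0.962). It was higher for St6galnac4 (0.933) and Galnt12 (0.868).

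Among 14 partners and regulators of the oxidase, 11 were tested and the others were not analysed here. In M1 cells 5 were higher than in M0 cells and 6 lower, where 72.7% of all genes tested were called, 33.6% higher and 39.1% lower. Arhgdib was at 1.05 and Cybc1, which encodes a chaperone of the membrane subunits, at 0.97. On the lower side, Vav3, which encodes an exchange factor for Rac, was at -1.89, Hvcn1, a proton channel that compensates charge during the burst, at -1.22 and Pik3cg, a phosphoinositide kinase, at -1.14. Rac1, the widely expressed relative of Rac2, was at -0.22. The median of the list was -0.22, and with each array centred on the median of the tested genes it was 0.11, with 5 higher and 4 lower. Repeated quantile normalization, centring on all probe sets and leaving out M1 replicate 2 each kept 5 higher and 6 lower. The sign of the median and part of the lower side thus depend on that 1 centring. Vav3, Hvcn1 and Pik3cg were lower by more than 0.321, the median gene's value under it.

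In M2 cells 3 of these 11 genes were higher than in M0 cells and 6 lower, where 31% of all genes tested were called, 12.7% higher and 18.4% lower. Prkcd, a protein kinase C that phosphorylates the organizer subunit, was at 1.22, and Hvcn1 was at 0.36, opposite in sign to its M1 value. Vav3 was at -1.36, Pik3cg at -0.84 and Vav1 at -0.51. Against M2 cells, both agents were called for lower Prkcd (-0.58 with nutlin-3a and -0.80 with 10058F4), lower Prex1, an exchange factor for Rac (-0.48 and -0.52), lower Arhgdib (-0.29 and -0.57) and lower Hvcn1 (-0.27 and -0.50), and for higher Vav3 (0.51 and 0.86). In all, nutlin-3a was called for 1 gene higher and 4 lower (5.85% of all genes tested were lower), and 10058F4 for 1 higher and 5 lower (10.2% lower). Both agents were compared with the same M2 arrays, so their likeness is not independent. Of 9 other genes of the NADPH oxidase family, 1, Noxo1, passed the filter and was low, at 5.25 in M1 cells and 5.64 in M0 cells; Nox4, Duox1, Duoxa1 and Duoxa2 lay under the filter.

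**Figure D5:**
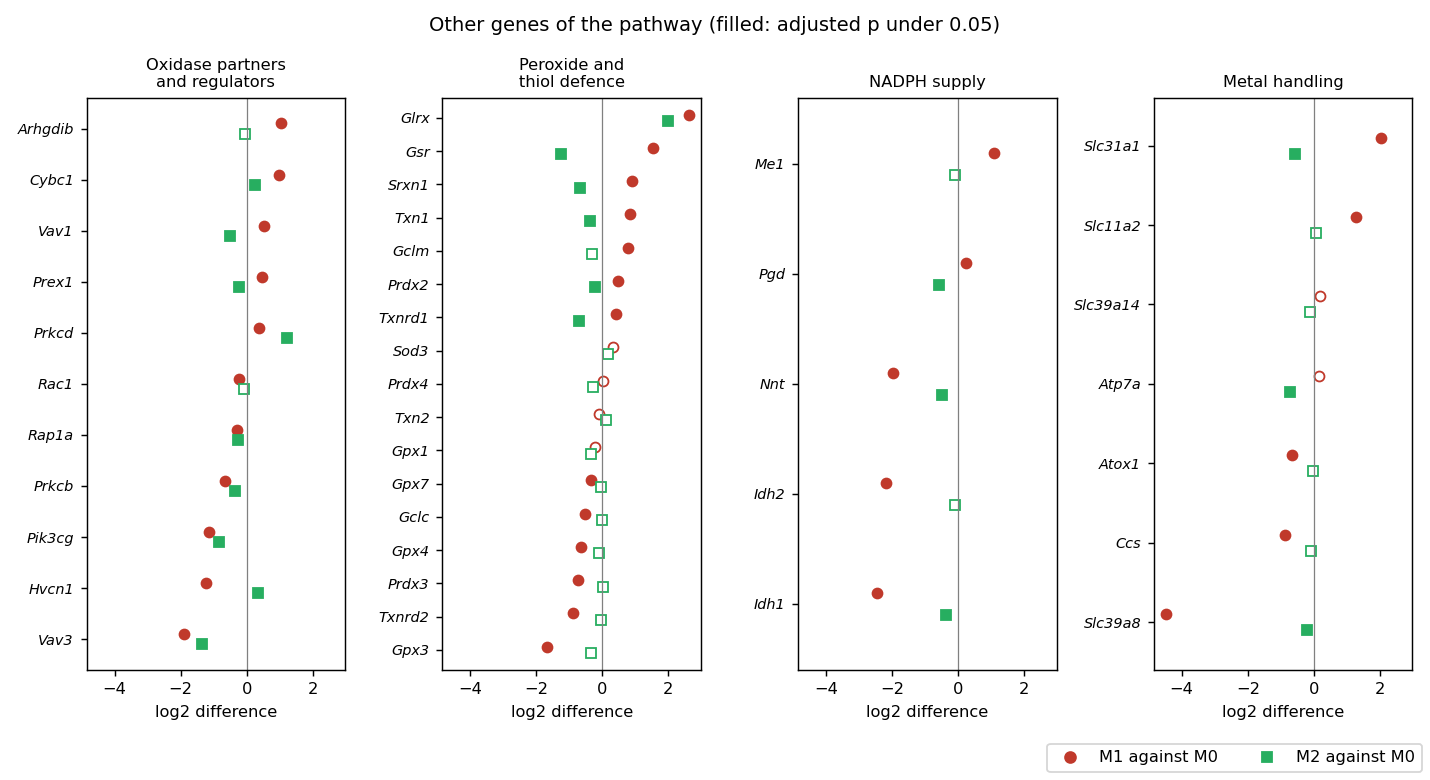
Difference (log2, horizontal axis) of the other pathway genes for M1 against M0 (circles) and M2 against M0 (squares), in 4 lists; filled symbols have an adjusted p under 0.05. Glrx lay to the right for both, at 2.63 and 2.0, while Gsr lay at 1.52 for M1 and -1.26 for M2.

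Genes that remove peroxide or keep thiols reduced went both ways. Of 17 tested, 7 were higher and 6 lower in M1 than in M0 cells, a share near the 72.7% of all genes tested that were called. Glrx (glutaredoxin) was at 2.63, Gsr (glutathione reductase, which uses NADPH) at 1.52 and Txn1 (thioredoxin) at 0.85. On the lower side, Gpx3 (a secreted glutathione peroxidase) was at -1.68 and Txnrd2 and Prdx3, both of mitochondria, at -0.90 and -0.75. Txn2, the thioredoxin of mitochondria, was at -0.09 and was not called. In M2 cells 1 was higher than in M0 cells, Glrx at 2.0, and 5 were lower, among them Gsr at -1.26 and Txnrd1 at -0.71. That count is near the 31% of all genes tested that were called, 12.7% higher and 18.4% lower. Both agents were called for higher Gsr against M2 cells (0.84 with nutlin-3a and 1.19 with 10058F4) and lower Glrx (-0.40 and -0.96), together with lower Txn2. Each agent was thus called for 1 gene of the 17 higher and 2 lower, against the same M2 arrays, so the likeness of the agents is not independent. Of all genes tested, 15.4% were called with nutlin-3a and 20.9% with 10058F4. The M1 to M0 counts were 8 higher and 7 lower without M1 replicate 2, and 10 higher and 4 lower with arrays centred on the median of the tested genes.

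Enzymes that supply NADPH, the electron donor of the oxidase, went both ways in M1 cells; 5 of the 6 listed were tested, and G6pdx was not analysed here. Idh1 was at -2.47 from M0 cells, Idh2 at -2.17 and Nnt, the mitochondrial transhydrogenase, at -1.98, while Me1, malic enzyme, was at 1.08 and Pgd, of the pentose phosphate pathway, at 0.23 (adjusted p = 0.0442). Thus 2 of 5 were higher and 3 lower, where 72.7% of all genes tested were called, and without M1 replicate 2 there was 1 higher and 3 lower. In M2 cells Pgd (-0.58), Nnt (-0.48) and Idh1 (-0.37) were lower than in M0 cells, where 18.4% of all genes tested were called lower. Among 7 genes of metal handling, Slc31a1, the copper importer, was at 2.02 in M1 against M0 cells and Slc11a2, an iron and manganese transporter, at 1.29, and Ccs and Atox1, which encode the copper chaperone of SOD1 and another copper chaperone, were at -0.88 and -0.65. Slc39a8, a zinc and manganese importer, averaged 3.35 in M1 cells, under the filter value of those arrays, against 7.84 in M0 cells, so its difference has no exact size. Slc31a1 was higher than in M2 cells with both agents, at 0.31 with nutlin-3a and 0.40 with 10058F4, again against the same M2 arrays.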

How the data were processed

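Total RNA from 15 macrophage cultures was hybridised to 1 array each. The authors deposited RMA expression on the log2 scale for every probe set, per the submitters' processing notes, which name no version. Of 45101 probe sets, 64 were controls, 34945 named 1 gene, 932 several and 9160 none, and 34741 matched the RefSeq table by gene ID. Genes took their brightest probe set, and were tested if above the array's 40th percentile (4.34 to 4.52) on at least 3 arrays, which left 13703 and dropped 4490. limma 3.58.1 in R 4.3.3 fitted 5 group means to all 15 arrays (10 residual and 3.86 prior degrees of freedom) with Benjamini-Hochberg adjustment over all tested genes; a gene was called at an adjusted p under 0.05. The number of arrays limits the precision. The code was checked on simulated data.

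Replicate numbers are shared across groups. Correlations of same-numbered arrays after subtracting group means were 0.232 to 0.424 for M0 with M2, 0.337 to 0.381 for M2 with M2+nutlin, 0.308 to 0.368 for M2 with M2+10058F4 and 0.341 to 0.408 between the agents, so the numbers pair those arrays. For M1 they were 0.055 to 0.263 with M0 and 0.063 to 0.148 with M2, all positive but not all over the limit of 0.1. With M2+nutlin they were 0.127 to 0.18, all over that limit, and with M2+10058F4 they were 0.065 to 0.224. These values do not settle whether a number pairs the M1 arrays with the others, so the replicate block is given as an alternative.

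The members, gene lists and tests were chosen with earlier results of these data known. Pathway genes named were taken, per list and comparison, from up to 4 called genes with the largest absolute difference, or from the 2 with the smallest p where fewer than 2 were called. Cybc1, Rac1, Txn1, Prdx3, Pgd, Atox1, Txn2 for M1 against M0 and, outside the M1 comparisons, Hvcn1 were added after their values were seen. Alternatives changed the filter, probe set choice, scaling, samples in the fit, prior, weights and replicate block, and left out each array in turn.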

Additional observations from a re-analysis of the deposited data

How the results depend on the processing

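Over 48 member comparisons and 896 alternatives in all, 863 kept their side of the threshold, 21 gained a call, 11 lost one and 1 reversed: Cyba for M1 against M2, at 0.22 (adjusted p = 0.0389, limma) with each array centred on the median of the tested genes. Of the 863, 35 changed sign where neither value was called. Cybb for M1 against M0 gained a call in 7 alternatives, among them the centring above (0.52, adjusted p = 0.00031) and the replicate block (0.0138), and Ncf4 for M1 against M2 in 7, among them the replicate block (0.0299), while the centring above turned it to 0.04 (adjusted p = 0.666). Ncf4 for M1 against M0 was called with the centring above (0.39, adjusted p = 0.00111), and Cybb for M2 against M0 was then not (-0.25, adjusted p = 0.0682). With arrays centred on the median of all probe sets, a setting added after the data were seen, Cyba for M1 against M0 was called (-0.22, adjusted p = 0.0384) and Ncf4 for M2 against M0 was not (0.0592). Cat for M1 against M2 was not called through probe sets without a suffix for shared sequence (-0.23, adjusted p = 0.195). The causes were not tested.

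Members called for M2+nutlin against M2 numbered 1; they were 0 with the mean of a gene's probe sets, 2 with the 6 arrays compared alone, 2 with array weights and 0 to 2 with 1 array left out. For M2+nutlin against M2+10058F4 they numbered 1, with 2 under array weights and 1 to 2 with 1 array left out. Genes called for M2+nutlin against M2 numbered 2112, with 3302 under array weights and 1243 to 2930 with 1 array left out. For M2+10058F4 against M2 they numbered 2858, with 4311 under array weights and 2035 to 3660 with 1 array left out. They numbered 954 for M2+nutlin against M2+10058F4, with 1483 from the 6 arrays alone and 2044 under array weights. With 1 array left out they were 567 to 1435. The upper ends 2930, 3660 and 1435, and the counts of 2 members with 1 array left out, were all reached without M1 replicate 2. That array belongs to neither group compared, and leaving it out of these comparisons was added after the data were seen. Leaving out an array of the compared groups gave fewer called genes than the full fit in each case.

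With the replicate block, members called numbered 6 for M1 against M0, 7 for M2 against M0 and 7 for M1 against M2. They numbered 1 for M2+nutlin against M2, 3 for M2+10058F4 against M2 and 1 between the agents. In the comparisons without M1 the block changed no member's call, and for M1 it added Cybb against M0 and Ncf4 against M2. The share of called genes that were higher moved with the scaling. Centring on the median of the tested genes gave 68.5% for M1 against M0 (46.2% as deposited), 61% for M2 against M0 (40.8%), 65.4% for M1 against M2 (43.5%), 41.2% for M2+nutlin against M2 (62%) and 44.4% for M2+nutlin against M2+10058F4 (60.9%). Repeated quantile normalization gave 51.4% for M2 against M0, 51.5% for M2+nutlin against M2 and 50.8% between the agents, and centring on all probe sets gave 73.4% for M2+nutlin against M2. Member differences under about the size of these shifts, such as those of Cyba, have no settled direction for M1.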
